A study of Mus musculus with 6 samples.

Results

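Cells neutralise peroxides and superoxide with 2 thiol systems, built on glutathione and on thioredoxin, and with enzymes that act on reactive oxygen directly. The genes described here are 44 mouse genes of these systems, chosen by name for their function. They were found through the gene symbols of the platform annotation, which names 15964 genes on the 3 array types used. Of the 44 genes, 36 were measured above background in both kinds of cells compared, 2 in 1 kind only and 2 in neither, and 4 (Prdx1, Prdx5, Prdx6 and Ggt1) were named by no probe set of their own. A further 3 probe sets carry the symbol of Prdx1 beside that of another gene and were not used.

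The cells were CD8+ T cells of P14 mice, female and on a C57Bl/6 background, whose transgenic T cell receptor recognises a known peptide. Spleen and lymph node cells were given that peptide for 2 days and then a cytokine for 7 days, IL-15 to make central memory (CM) cells or IL-2 to make effector/effector memory (E/EM) cells. Each kind was sorted on a surface marker, high in CM and low in E/EM cells. RNA of each kind went on 1 array of each of 3 types, SubA, SubB and SubC, so the cytokine, the sort and the array cannot be told apart as sources of a difference. The labels give neither the number of mice nor the age.

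Glutathione is made from glutamate, cysteine and glycine by glutamate-cysteine ligase and glutathione synthetase, and glutathione reductase restores it from its oxidised form with NADPH. Glutathione peroxidases, transferases and glutaredoxins use it to reduce peroxides, tag electrophiles and free protein thiols. Thioredoxin, restored by its own NADPH-dependent reductase, drives the peroxiredoxins. Many of these genes are targets of the transcription factor NRF2, which KEAP1 holds inactive until oxidants or electrophiles modify it. In T cells the systems support proliferation after antigen, when respiration and biosynthesis both draw on reducing power.

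All values are deposited array intensities, called signals here. A signal counted as measured when it lay above the floor of its array type, 31.28 on SubA, 88.12 on SubB and 194.34 on SubC, set from control probe sets for bacterial RNA. Differences are log2 ratios of CM over E/EM signal, so a negative value is a lower signal in CM cells, and 1 unit is 2-fold. A gene's ratio is the mean over its measured probe sets, and the standard deviation (SD) is over those probe sets. With 1 array per group there was no replicate and no test, and no difference could be set against the spread between cultures. Over the 4094 genes with several measured probe sets the median of that technical SD was 0.32, which serves as a guide for genes with 1 probe set. These are bulk samples, so fewer cells expressing a gene and less RNA per cell cannot be told apart.

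As a set the antioxidant genes were close to level between the 2 kinds of cells, with a few members apart. The median log2 ratio of the 36 measured members was 0.0065, against -0.0025 for all 10946 measured genes. Above 0 lay 19 members and below it 17, and 28 of the 36 (77.8%) lay within 0.5 of 0, against 69.4% of all genes. By the 2-fold rule 1 member was lower in CM cells and 1 was higher (2.78% each), against 5.61% lower and 2.73% higher among all measured genes. By a 1.5-fold rule 4 members (11.1%) were lower and 3 (8.33%) higher, against 13.9% and 10.1% of all genes, so these shares were near the background. The members past 1.5-fold were Glrx, Hmox1, Gstm5 and Srxn1, lower in CM cells, and Gclc, Mgst3 and Glrx2, higher in CM cells.

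**Figure D1:**
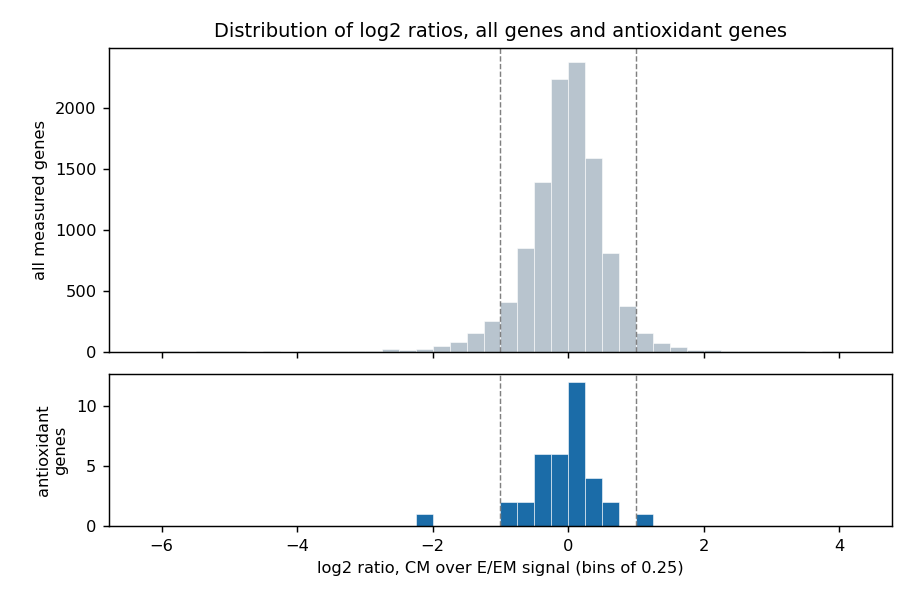
Log2 ratios of CM over E/EM signal in bins of 0.25, for all 10946 measured genes (upper panel, number of genes) and for the 36 measured antioxidant genes (lower panel, number of genes); dashed lines mark 2-fold. The antioxidant genes gather around 0 (median 0.0065), and 1 member lies beyond each 2-fold line.

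The measured values rested on 57 of the 80 probe sets named for a member. Of the other probe sets, 9 exceeded the floor in just 1 kind of cell and 14 did so in neither. SubA held 50 of the 80, SubB 12 and SubC 18. For 22 members the ratio came from 1 probe set. The other 14 had several, and in 11 of these the probe sets fell on both sides of 0. Their median SD was 0.38, and 7 had an SD over 0.5, so small ratios of these genes have no settled direction.

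**Figure D2:**
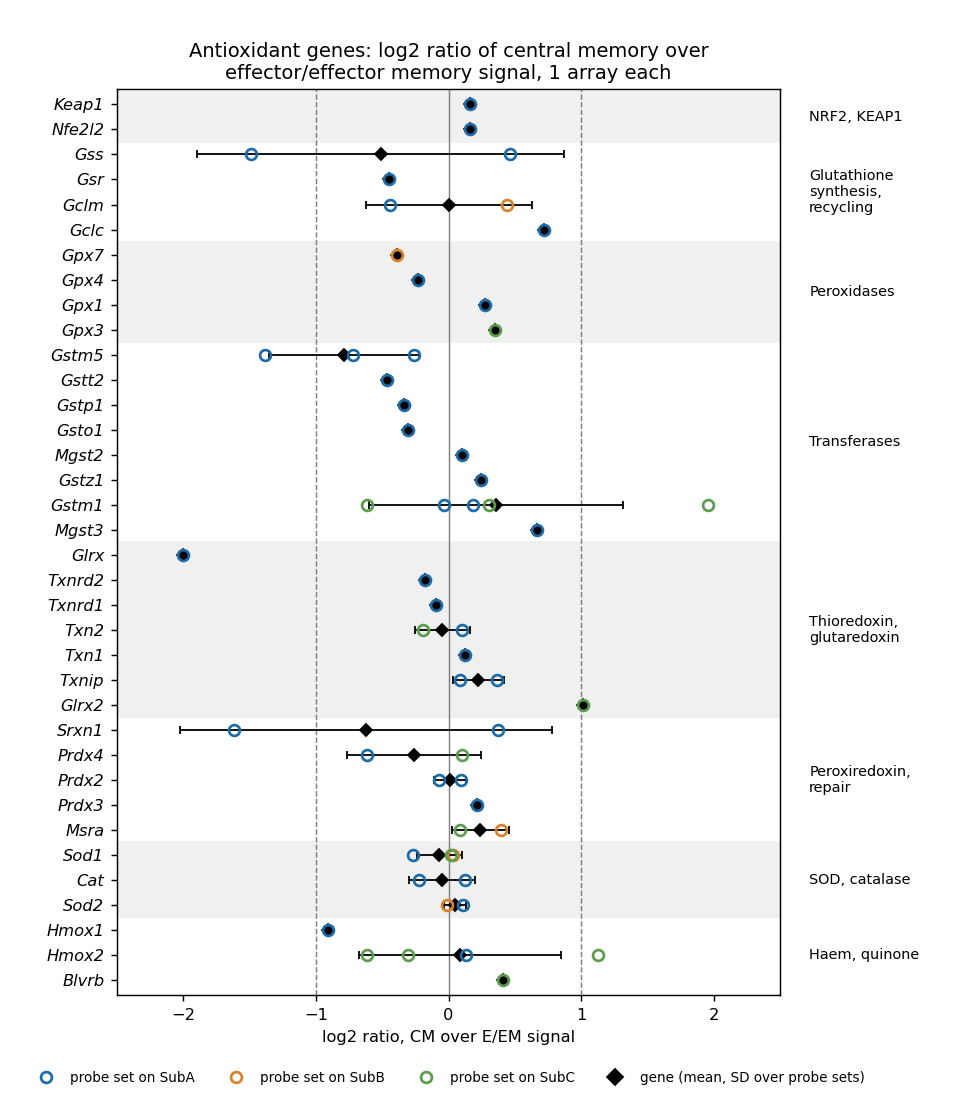
Log2 ratios (CM over E/EM) of the 36 measured members, ordered by role. Black diamonds are genes (mean, with the SD over probe sets where there are several), open circles are probe sets coloured by array type, and dashed lines mark 2-fold. Glrx at -2.01 and Glrx2 at 1.02 stand at the ends, and the wide bars of Gss, Srxn1 and Gstm1 come from probe sets that disagree.

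The regulators were nearly level. Nfe2l2, which encodes NRF2, had signals of 410.1 in CM and 366.2 in E/EM cells, a log2 ratio of 0.16. Keap1, its inhibitor, had signals of 37.9 and 33.9 and also a ratio of 0.16, but its E/EM signal stood at 1.08 times the floor. Both kinds of cells thus gave about the same signal for each regulator. Of 13 members listed as known NRF2 targets, 10 were measured, 5 above 0 and 5 below, with a median of -0.05. None of the 10 passed 2-fold, while Hmox1 and Srxn1 were lower and Gclc higher by the 1.5-fold rule, 2 and 1 of 10 beside 13.9% and 10.1% of all genes. Nqo1, a quinone reductase often used as a readout of NRF2, had its stronger probe set at 33.3 in E/EM cells, just above the floor, and at 11.7 in CM cells. That makes it at least 1.06-fold lower in CM cells, and its other probe set was at or under the floor in both kinds of cells.

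NRF2 binds DNA with a small MAF partner at the antioxidant response element. Its core, written TGACNNNGC or, on the other strand, GCNNNGTCA, was searched in RefSeq promoter windows (GRCm38.p6) from 250 bases before to 50 bases after each annotated start. Windows matched 37 of the 44 members by symbol, all but Gclc, Gsr, Gsta4, Gstt2, Hmox1, Msra and Prdx6. The core was found for 9 of them (24.3%), against 14.0% of 27025 genes with a window, or in 20.0% of 55 member windows against 12.4% of 32851 windows. The members have a mean of more than 1 window a gene, and a match is a run of letters, not a binding site. The following stretches are shown because they belong to the measured members whose core lay before the start, with the core in capitals and the gene's own strand from 5′ to 3′.
Nfe2l2, chr2:75704865-75704913: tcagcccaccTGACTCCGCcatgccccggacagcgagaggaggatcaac
Gstm5, chr3:107895782-107895850: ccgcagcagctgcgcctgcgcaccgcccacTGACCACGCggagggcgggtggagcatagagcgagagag
Gclm, chr3:122245393-122245461: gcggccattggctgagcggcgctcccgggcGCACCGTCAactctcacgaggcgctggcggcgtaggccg
Txnrd1, chr10:82859084-82859152: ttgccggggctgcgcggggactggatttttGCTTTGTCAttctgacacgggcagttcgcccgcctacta
Sod1, chr16:90220676-90220744: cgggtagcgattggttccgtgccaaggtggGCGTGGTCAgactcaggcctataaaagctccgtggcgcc
The genes are on the minus strand for Nfe2l2 and on the plus strand for the rest. The sixth measured member with the core was Srxn1, where it began at base 29 after the start. Log2 ratios of these 6 members ran from -0.79 (Gstm5) to 0.16 (Nfe2l2) with a median of -0.08. The 25 measured members with a window but no core ran from -2.01 to 1.02 with a median of 0.08, and Glrx and Glrx2 are among them. As 6 measured members hold the core and 25 do not, the absence of Glrx and Glrx2 from the 6 is no result about the core. Hmox1 and Gclc, both past 1.5-fold, had no window.

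Genes of glutathione synthesis and recycling were split. Gclc, the catalytic subunit of glutamate-cysteine ligase and so of the rate-limiting step, had signals of 479.8 in CM and 290.6 in E/EM cells, a log2 ratio of 0.72. A second Gclc probe set was under the floor in both kinds of cells, at 83.3 and 44.6. The modifier subunit Gclm did not follow Gclc on its brightest probe set, which had signals of 355.4 in CM and 482.4 in E/EM cells and a ratio of -0.44. Another Gclm probe set gave 170.1 and 125.0, a ratio of 0.44 with the weaker signal 1.42 times the floor, and 1 more was at least 1.42-fold higher in CM cells. The mean of the 2 ratios was 0.0018 ± 0.63 (SD), so Gclm has no settled direction.

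Gss, glutathione synthetase, was likewise read in opposite directions by its probe sets. The brighter one had signals of 450.9 in CM and 326.1 in E/EM cells (0.47) and the dimmer one 40.4 and 113.6 (-1.49), which makes a mean of -0.51 ± 1.39 (SD, 2 probe sets). The dimmer probe set carries a suffix for non-standard probes and stood at 1.29 times the floor. Gsr, glutathione reductase, had 904.8 against 1237.4, a ratio of -0.45 from 1 probe set. Within this group the ratio of the rate-limiting ligase subunit and that of the reductase thus had opposite signs, each from 1 measured probe set. Both were larger than the typical probe set SD of 0.32 but smaller than the SD of Gss (1.39). The ratio of the reductase was also smaller than the SD of Gclm (0.63).

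The glutathione peroxidases, which reduce peroxides to water or alcohols, lay between -0.39 and 0.35. Gpx4, which protects membrane lipids from peroxidation and ferroptosis, had signals of 655.5 in CM and 769.4 in E/EM cells (-0.23). Gpx1, the abundant cytosolic form, had 322.2 and 266.6 (0.27). Both differences were smaller than the typical probe set SD. Gpx3, a secreted form, had 315.1 and 247.3 on SubC (0.35), while a SubA probe set above the floor in E/EM cells alone put it at least 1.22-fold lower in CM cells. Gpx7, an endoplasmic reticulum form, had 125.7 and 164.5 (-0.39). The weaker signals of Gpx3 and Gpx7 were 1.27 and 1.43 times the floor. The 5 members that are selenoproteins (Gpx1, Gpx3, Gpx4, Txnrd1 and Txnrd2) had a median of -0.09, and none of them passed 1.5-fold.

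Glutathione transferases join glutathione to electrophiles. Of the 11 members of this group 8 were measured, with a median of -0.10. By the 1.5-fold rule 1 was lower and 1 higher (12.5% each), beside 13.9% and 10.1% of all genes. Gstp1, the pi class enzyme, had signals of 5221.1 in CM and 6587.8 in E/EM cells, the weaker 166.9 times the floor, and a ratio of -0.34. Gsto1, of the omega class, had 1391.8 and 1716.5 (-0.30), and Gstt2, of the theta class, 603.5 and 832.6 (-0.46). Gstz1, which isomerises an intermediate of tyrosine breakdown, had 328.9 and 278.2 (0.24). These 4 ratios stayed under 1.5-fold. Gstt1, another theta enzyme, was above the floor in E/EM cells alone, with 43.7 against 17.8, at least 1.40-fold lower in CM cells. Gsta4 and Mgst1 were at or under the floor in both kinds of cells, at 4.2 and 2.6 and at 8.0 and 7.6.

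Among the microsomal enzymes, Mgst3, a membrane-bound transferase and peroxidase, had signals of 364.3 in CM and 229.3 in E/EM cells, a log2 ratio of 0.67 at 7.33 times the floor. Its 2 other probe sets were under the floor in both kinds of cells. Mgst2, the relative that can form leukotriene C4, had 2053 and 1911.7 (0.10). The mu class gave the least settled values. Gstm5 had 3 measured SubA probe sets, with 474.2 against 780.5, 56.3 against 147.3 and 43.0 against 51.4, all lower in CM cells, and a mean of -0.79 ± 0.57 (SD). Another SubA probe set was above the floor in E/EM cells alone, at least 2.65-fold lower in CM cells, and a SubC probe set above it in CM cells alone was at least 1.10-fold higher there. Gstm1 had 5 measured probe sets with ratios of -0.61, -0.03, 0.19, 0.30 and 1.96, a mean of 0.36 ± 0.96 (SD). The largest of these had its weaker signal at 1.03 times the floor. Mu class genes are close copies of each other, and all 8 measured probe sets of Gstm1 and Gstm5 carry suffixes for shared or non-standard probes. The values of the individual genes are therefore uncertain.

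The largest difference in the set was in the glutaredoxins, which free protein thiols bound to glutathione. Glrx, the cytosolic glutaredoxin, had signals of 971.8 in CM and 3901.2 in E/EM cells, 4.01-fold lower in CM cells with a log2 ratio of -2.01. It ranked number 79 from the lowest of the 10946 measured genes, and its weaker signal was 31.1 times the floor. Glrx2, the mitochondrial and nuclear glutaredoxin, went the other way. It had 618.9 in CM and 306.0 in E/EM cells on SubC, 2.02-fold higher in CM cells (1.02), with the weaker signal 1.57 times the floor. A SubB probe set of Glrx2 was above the floor in CM cells alone, with 107.2 against 32.2, at least 1.22-fold higher. Each glutaredoxin ratio rests on 1 measured probe set and that of Glrx2 on the array type with the highest floor.

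**Figure D3:**
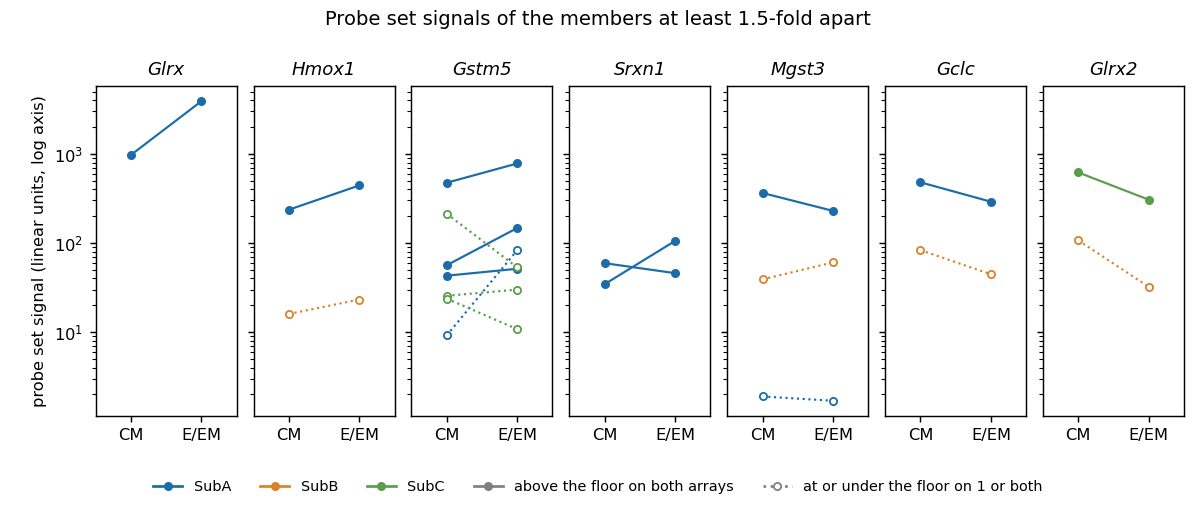
Signals of every probe set of the 7 members at least 1.5-fold apart, in CM and E/EM cells (log axis, 1 array each), coloured by array type. Filled points and solid lines are probe sets above the floor on both arrays, and open points with dotted lines are at or under it on 1 or both. Glrx goes from 971.8 in CM to 3901.2 in E/EM cells, and the 2 Srxn1 probe sets cross.

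The thioredoxin system itself was level. Txn1, cytosolic thioredoxin, had signals of 12080.8 in CM and 11059 in E/EM cells (0.13), and Txnrd1, its reductase, 1390.2 and 1483.9 (-0.09). The mitochondrial pair gave -0.05 ± 0.21 (SD, 2 probe sets) for Txn2 and -0.17 for Txnrd2, with signals of 159.0 and 179.4 for the latter. Txnip, which binds and inhibits thioredoxin and restrains glucose uptake, had 2681.2 and 2086 on its brighter probe set and a mean of 0.23 ± 0.19 (SD, 2 probe sets). None of these gene ratios reached the typical probe set SD. Of the 5 mitochondrial members (Txn2, Txnrd2, Prdx3, Glrx2 and Sod2) only Glrx2 passed 1.5-fold, higher in CM cells (20%, beside 10.1% of all genes). The median of the 5 was 0.05.

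Peroxiredoxins are abundant peroxidases that take their electrons from thioredoxin. Prdx2, the cytosolic form, had signals of 3606.1 in CM and 3794 in E/EM cells on its brightest probe set and a mean of 0.01 ± 0.12 (SD, 2 probe sets). One SubB probe set of Prdx2, above the floor in E/EM cells alone, was at least 1.28-fold lower in CM cells. Prdx3, the mitochondrial form, had 1695 and 1458 (0.22). Prdx4, of the endoplasmic reticulum, had 511.9 and 783.7 on SubA (-0.61) but 990.2 and 923.7 on SubC (0.10). Its mean was -0.26 ± 0.51 (SD), and the 2 probe sets do not settle a direction.

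Enzymes that repair oxidised protein followed no common direction. Srxn1, sulfiredoxin, which reactivates overoxidised peroxiredoxins, had signals of 34.5 in CM and 105.6 in E/EM cells on one SubA probe set (-1.61) and 59.4 and 45.9 on the other (0.37). Its mean was -0.62 ± 1.40 (SD), both weaker signals were under 1.5 times the floor, and quantile normalization took the mean to -0.44, under 1.5-fold. Msra, which reduces methionine sulfoxide, had 1422.9 and 1083.8 on SubB and 709.6 and 667.3 on SubC, a mean of 0.24 ± 0.22 (SD). Srxn1 therefore passed 1.5-fold on the strength of 1 dim probe set, and Msra did not pass it.

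The superoxide dismutases and catalase lay close to 0. Sod1, the cytosolic copper-zinc dismutase, had ratios of -0.27, 0.04 and 0.02 on SubA, SubB and SubC, a mean of -0.07 ± 0.17 (SD), with signals of 14130.8 in CM and 13917.3 in E/EM cells on SubC. Sod2, the mitochondrial manganese dismutase, had 398.4 and 369.9 on SubA and 304.3 and 306.8 on SubB (0.05 ± 0.08). Cat, catalase of peroxisomes, had 434.8 and 399.0 on one probe set and 296.3 and 346.3 on the other (-0.05 ± 0.25). Each mean was smaller than its SD.

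Haem and bilin enzymes differed among themselves. Hmox1, the inducible haem oxygenase and a target of NRF2 and its competitor BACH1, had signals of 236.1 in CM and 442.8 in E/EM cells, 1.88-fold lower in CM cells (-0.91) at 7.55 times the floor. A SubB probe set of Hmox1 was under the floor in both kinds of cells. Hmox2, the constitutive form, had 4 measured probe sets with ratios of -0.62, -0.31, 0.14 and 1.13. Their mean was 0.08 ± 0.76 (SD), and the highest and the lowest were both well above the floor, so Hmox2 has no settled direction. Blvrb, biliverdin reductase B, had 719.4 and 540.5 on SubC (0.41), and a SubB probe set was at least 2.18-fold higher in CM cells. Hmox1 is known to be strong in macrophages. Of 11 macrophage, monocyte and neutrophil markers, 6 (Lyz2, Itgam, Adgre1, S100a8, S100a9 and Mpo) were at or under the floor in both kinds of cells. Above the floor were 7 of 19 probe sets of the list in CM and 6 in E/EM cells. The summed SubA signal of the list over 18 probe sets was 605.2 in CM and 821.9 in E/EM cells. The 5 measured markers had a median log2 ratio of -0.50, with 4 below 0 and 1 above. Cd68 had 89.4 in CM and 199.5 in E/EM cells, Cd14 88.2 and 136.6, and Csf3r 133.0 and 187.9 on its measured probe set. Csf1r had a mean of -0.06 ± 0.21 (SD, 2 probe sets). Elane went the other way, with 60.2 in CM and 51.6 in E/EM cells on SubA. Its SubC probe set was above the floor in CM cells alone, with 201.6 against 55.2. The part of such cells in the Hmox1 ratio was not tested.

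Both kinds of cells carried T cell markers. No list of markers that separate CM from E/EM cells was examined here. The T cell list had a summed SubA signal of 50065.2 in CM and 48552.2 in E/EM cells over 11 probe sets, with Cd8a at 5882.7 and 5133.8. Erythroid cells are rich in Prdx2 and catalase, and the summed SubA signal of their 7 marker probe sets was 348.3 and 393.3, with Alas2 and Car1 at or under the floor. Hba-a1 (109.5 and 78.0 in CM and E/EM cells), Slc4a1, Klf1 (78.4 and 110.8) and Epor were above it in both kinds of cells, and Car2, with 27.4 against 117.9, was at least 3.77-fold lower in CM cells. Their part in the Prdx2 and Cat values was not tested. Over 9 SubA probe sets of B cell markers it was 651.8 and 631.1, and over 13 of stromal and endothelial markers 724.3 and 750.5. In the stromal list Col3a1, Cdh5 and Sparc were at or under the floor, while Col1a1, Col1a2 (367.3 and 419.9 on its brighter probe set), Pdgfra and Pecam1 (114.6 and 83.6) were above it in both kinds of cells.

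Genes that feed or surround the antioxidant systems were collected in 7 further lists, 128 genes in all, of which 85 were measured. At least 2-fold lower in CM cells were 10 of them (11.8%) and at least 2-fold higher 0, beside the 5.61% and 2.73% of all genes given above, and the median was -0.10. At 1.5-fold 18 (21.2%) were lower and 4 (4.71%) higher, beside 13.9% and 10.1% of all genes. Below 0 lay 53 and above it 32, where all measured genes had 5504 and 5440. Some of these genes were already known to be lower in CM cells when the lists were written, so the counts are no independent evidence of a direction. Genes of these lists named below with less than a 2-fold difference were picked after their values were seen.

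The list of cystine and glutamate supply had a median of -0.27 over 6 measured genes. Chac1, which degrades glutathione and is induced by ATF4, had signals of 176.8 in CM and 692.9 in E/EM cells (-1.97), and the glycine transporter Slc6a9 had 205.7 and 490.7 (-1.25). Slc1a4, a carrier of neutral amino acids, had 22.4 against 265.8, which puts it at least 8.50-fold lower in CM cells. The cystine transporter Slc7a11 was at or under the floor on both of its probe sets, in both kinds of cells. Both genes past 2-fold in this list, the glutathione-degrading enzyme and the glycine carrier, were lower in CM cells. They were 33.3% of the 6 measured genes, beside 5.61% lower and 2.73% higher among all genes.

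The list named NADPH supply, which also holds the fatty acid synthase Fasn (0.27), had a median of -0.06 over 13 measured genes. The pentose phosphate enzymes Pgd (0.09), Pgls (-0.06), Tkt (-0.10) and Taldo1 (0.29) were close to level on their measured probe sets. Another Pgd probe set, above the floor in E/EM cells alone with 12.5 against 45.6, was at least 1.46-fold lower in CM cells. G6pdx, of the same pathway, was named by no probe set of its own, so the pathway was not read in full. Me2, mitochondrial malic enzyme, had 0.89 ± 0.40 (SD, 2 probe sets), while the cytosolic Me1 was above the floor in E/EM cells alone, at least 2.60-fold lower in CM cells with 15.8 against 81.4. Aldh1l1, of folate metabolism, had -1.45 ± 0.31 (SD, 2 probe sets) with weaker signals of at most 1.26 times the floor. It was the only gene of this list past 2-fold (7.69% of the measured genes, beside 5.61% lower among all genes).

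The list named for partners and competitors of NRF2 had a median of -0.14 over 12 measured genes. It also holds other regulators, among them Cul3, Atf4, Myc, Foxo1 and Foxo3. Sqstm1, the autophagy receptor p62, which binds KEAP1 and is itself an NRF2 target, had signals of 1265.9 in CM and 3342.8 in E/EM cells (-1.40). Mafg, a small MAF partner of NRF2, had -0.84 ± 0.49 (SD, 3 probe sets), and Bach2, a repressor of related sites in lymphocytes, had 4378.2 and 2632.9 (0.73). The 2 measured Bach1 probe sets disagreed, at -0.60 and 0.65. Sqstm1 alone passed 2-fold in this list (8.33% of the measured genes, beside 5.61% lower among all genes).

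The list of further glutathione and thiol enzymes had 27 measured genes and a median of -0.10. At least 2-fold lower in CM cells were 3 (11.1%) and higher 0, beside 5.61% and 2.73% of all genes. Gstt3 had 112.6 and 311.4 (-1.47) and Msrb2, a mitochondrial methionine sulfoxide reductase, 159.1 and 416.9 (-1.39). The mu class gene Gstm2 had -1.11 ± 1.19 (SD, 2 probe sets). Its SubA probe set, with a suffix for non-standard probes, gave 60.6 and 235 (-1.96) at 1.94 times the floor. The SubC one gave 776.6 and 934.2 (-0.27), so Gstm2 passed 2-fold on the strength of the SubA probe set. The weaker signals of Gstt3 and Msrb2 were 1.28 and 1.81 times the floor. Gpx6 was at least 2.07-fold lower in CM cells. Glrx3 and Msrb1, with -0.18 and -0.16, did not share the large ratios of Glrx and Msrb2.

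Among sources of superoxide and peroxide, Ero1a, the endoplasmic reticulum oxidase that makes peroxide while forming disulfide bonds, was lower in CM cells on all 3 probe sets. They had 2144 against 4450.2, 2198.1 against 5725.2 and 841.8 against 3146.4, a mean of -1.45 ± 0.43 (SD). Maoa had -1.17, with a weaker signal 1.11 times the floor, and xanthine dehydrogenase, Xdh, had -0.85. The NADPH oxidase subunits Cyba (-0.21 ± 0.16), Ncf1 (-0.09) and Ncf4 (-0.32) and the GTPase Rac2 (-0.03 ± 0.21) were within 1.5-fold, and the catalytic subunit Cybb was above the floor on 1 of its 3 probe sets and in CM cells only. The list had 2 of 11 measured genes past 2-fold, both lower in CM cells, beside 5.61% lower and 2.73% higher among all genes.

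Of the genes for selenoprotein synthesis and further selenoproteins 12 were measured, with a median of 0.12. Only Selenon, of the endoplasmic reticulum, passed 2-fold, with 436.1 in CM against 898.1 in E/EM cells (-1.04). That was 8.33% of the measured genes, beside 5.61% lower among all genes. Iron storage and handling genes had a median of -0.28 over 4 measured genes, and 0 passed 2-fold. Fth1, the ferritin heavy chain and an NRF2 target, had -0.42 ± 0.58 (SD, 5 probe sets), which does not settle a direction.

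**Figure D4:**
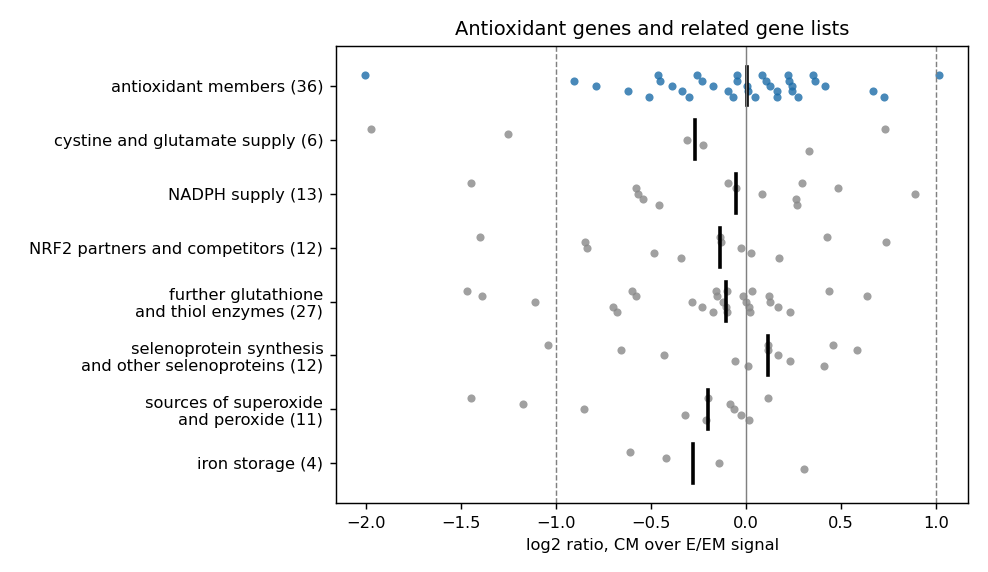
Log2 ratios (CM over E/EM) of the 36 measured antioxidant members (blue) and for the measured genes of 7 related lists (grey; number of genes in parentheses). Black bars are medians, vertical spread within a row carries no meaning, and dashed lines mark 2-fold. Chac1 at -1.97 is the lowest of the related genes, and 0 of them lie above the upper 2-fold line.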

How the data were processed

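Per the labels, CM and E/EM cultures of mouse CD8+ T cells gave total RNA for 3 array types, with 1 array for each kind on each type. The values are linear probe set intensities as deposited by the authors. The sources used here do not name the software. The mean of each array without its lowest and highest 2% was close to 500 (from 500.1 to 500.3), and the arrays of a type differed in it by at most 0.00858%, under a limit of 5%, so no further normalization was applied.

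For each array the 90th percentile over 15 bacterial poly-A control probe sets was taken, and the larger of the CM and E/EM values was the floor of that type. Above it lay between 64.3% and 69.1% of probe sets on SubA and SubB and about 47% on SubC (47.1% in CM, 47.3% in E/EM cells). The number of arrays limits the precision. Symbols are those of the platform annotation held by GEO; their Entrez identifiers, set against RefSeq (GRCm38.p6), changed 0 symbols. Probe sets with several symbols or none name no gene. Where 1 signal lay above the floor, its ratio to the floor is given as at least N-fold.

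The members and the lists were chosen with earlier results of these data known. All members are accounted for; of the other lists, genes past 2-fold (at most 4 a list) and bounds of at least 2-fold are given, while others were picked after seeing values. Gene ratios were tested on simulated data with known ratios. The control probe sets kept their deposited values there, so the floors were not tested, nor were the counts of members. Python 3.11.15, pandas 2.3.3 and numpy 2.4.6 were used. The 8 alternatives included quantile normalization, centring each table, the floor halved or doubled, and taking only a gene's brightest probe set. The others dropped probe sets with a suffix for shared or non-standard probes, used SubA alone, or used SubA with SubB.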

Additional observations from a re-analysis of the deposited data

How the results depend on the processing

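With 1 array per group, no alternative tells how far another culture would differ. The median of the members stayed between -0.05 and 0.10 under the 8 alternatives. At 1.5-fold the lower members numbered 3 to 5 and the higher 2 to 4. At least 2-fold lower in CM cells were 2 members in place of 1 with the floor halved (Gstt1, measured only then, at -1.30), and also 2 with only each gene's brightest probe set and without shared probe sets (Srxn1 at -1.61). At least 2-fold higher were 0 in place of 1 with the floor doubled, on SubA alone and without SubC, where Glrx2 has no ratio. The 2-fold shares of all genes ran from 4.12% to 7.63% lower and from 2.09% to 3.91% higher under the alternatives. Glrx, Hmox1, Gclc and Mgst3 were past 1.5-fold with the same sign under each of the 8, but each rests on 1 SubA probe set, which most of these alternatives leave as it is. Without the shared or non-standard probe sets Gpx3, Gpx7, Gstm1, Gstm5 and Blvrb have no ratio. Gss changed from -0.51 to 0.47 with the floor doubled, the brightest probe set or no shared probe sets. Signals near the floor limit Keap1, Gpx3, Gpx7, Glrx2 and Srxn1, which have no ratio with the floor doubled. SubC, where fewer probe sets lie above the floor, gives the only ratios of Gpx3, Glrx2 and Blvrb.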
